A study of Homo sapiens with 12 samples.

Results

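The genes TIMP3, KLK10, PIP, NPNT, OLR1, CYBRD1, SEMA6C, SYBU and RANBP3L were followed by mRNA sequencing of T47D cells, an established estrogen receptor-positive luminal breast cancer line. They were chosen by name because their counts stood far higher in alpelisib than in vehicle in at least 1 of the lines, so that the size of this rise is a description and carries no test. All 9 symbols were found among the 27864 genes of the count table, and all 9 passed the filter on low counts, as did 16081 genes in all. BYL719 (alpelisib) inhibits the alpha isoform of PI3K. The 4 groups were a control line (CTRL) in the vehicle DMSO with 3 libraries, CTRL in 3 µM BYL719 with 3, the line with NF1 knocked out (NF1KO) in DMSO with 2, and NF1KO in 3 µM BYL719 with 3, each after 48 h. NF1 encodes neurofibromin, which switches RAS off. Whether the knockout line was a clone or a pool, and how it was made, is not given in the sources used here, so the loss of NF1 and other differences between the lines cannot be told apart. NF1KO DMSO replicate 1 was not analysed here.

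PI3K signals through AKT, which keeps FOXO transcription factors out of the nucleus, and blocking PI3K is known to let FOXO factors act and to raise hormone receptor and differentiation genes in luminal breast cells. Of the 9 genes, 4 encode secreted proteins. TIMP3 is a matrix-bound inhibitor of metalloproteinases, KLK10 belongs to the kallikrein-related serine proteases, PIP is the prolactin-induced protein of apocrine glands and NPNT is nephronectin, a basement membrane ligand of integrin alpha 8 beta 1. Another 3 encode membrane proteins, namely the scavenger and lectin-like receptor OLR1 that takes up oxidised LDL, the ferric and ascorbate-linked reductase CYBRD1, and the transmembrane semaphorin SEMA6C. The other two are neither secreted nor known as surface proteins. SYBU (syntabulin) links syntaxin-bearing vesicles to kinesin-1, and RANBP3L helps export SMAD proteins from the nucleus.

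The 11 libraries held 53283945 to 60148876 counts. NF1 stood between 147 and 289 normalised counts (CPM, counts scaled to library size) in the CTRL libraries and between 0.400 and 0.891 CPM in the NF1KO libraries. The 10 luminal markers summed to 10211 to 13744 CPM, with KRT8, KRT18 and KRT19 among the most abundant. In the same libraries 8 basal markers summed to 11.1 to 20.3 CPM and 7 leukocyte markers to 1.02 to 1.56 CPM. The 8 fibroblast markers summed to 49.5 to 55.5 CPM in CTRL DMSO and 16.9 to 36.9 CPM in the other groups, nearly all of it COL1A1, which stood at 52.5 CPM in CTRL DMSO and 19.5 CPM in NF1KO BYL719. The part of these markers in the results below was not tested. In bulk RNA, fewer cells that express a gene and less RNA per cell cannot be told apart.

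**Figure D1:**
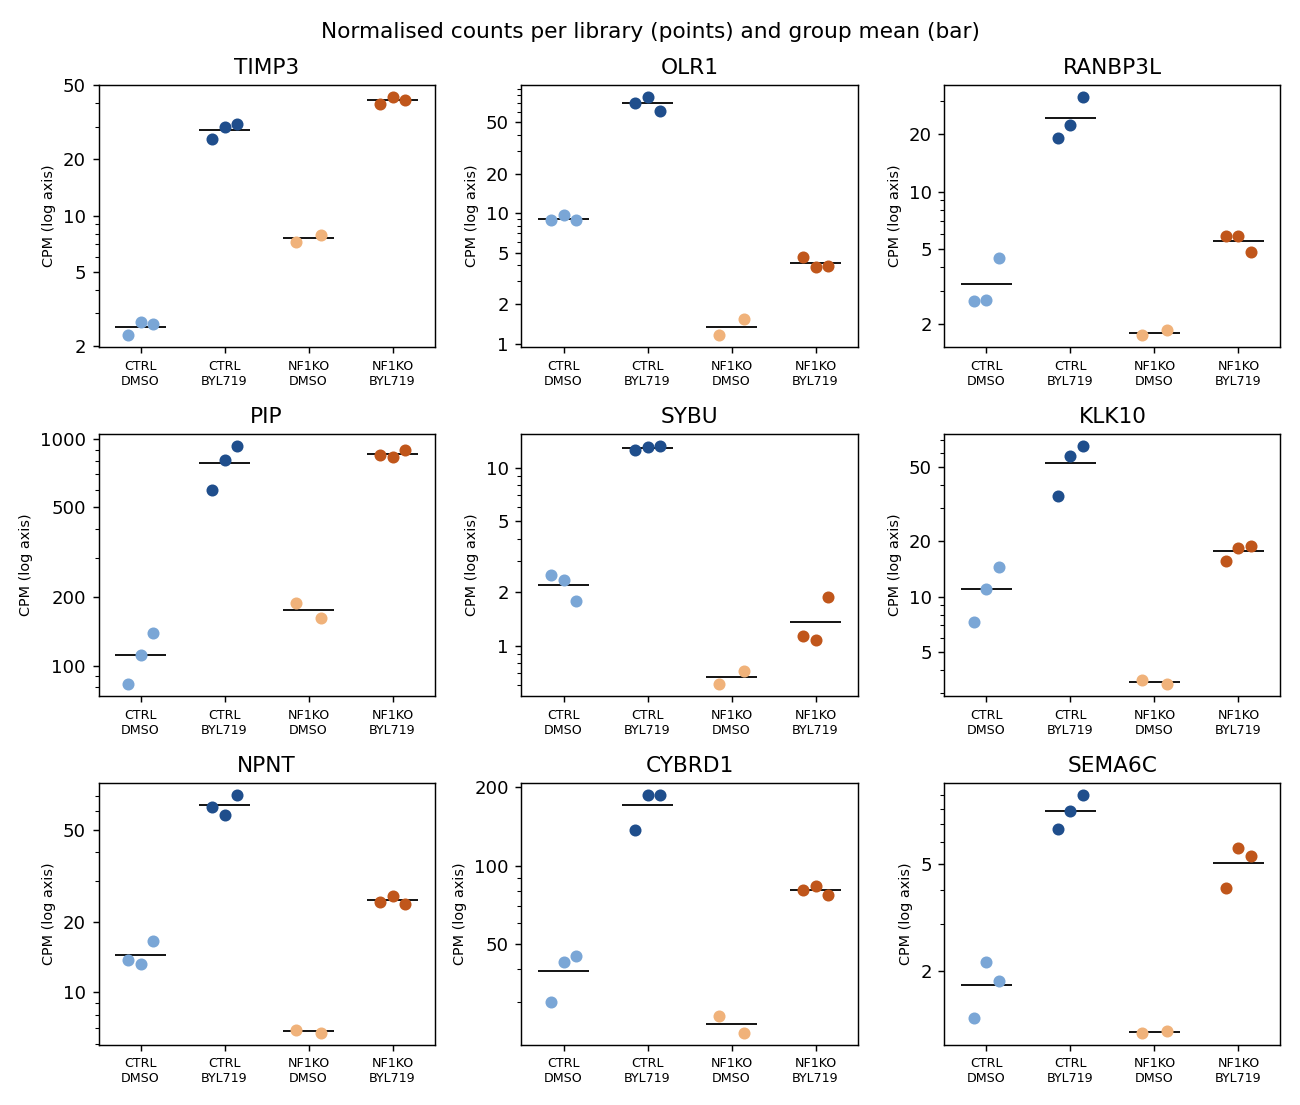
Normalised counts (CPM, log axis) of the 9 genes in each of the 11 libraries, with a black bar at each group mean. NF1KO libraries lay above CTRL libraries in both treatments for TIMP3 alone, PIP libraries of the lines overlapped in BYL719, and the other 7 genes lay lower in NF1KO in both treatments.

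The 9 genes sat at very different start levels. Per kilobase of annotated exon, PIP stood at 190.2 CPM in CTRL DMSO, above 99.2% of tested genes with a length, and at 1339 CPM in CTRL BYL719. CYBRD1 was the next highest in CTRL DMSO with 7.60 CPM per kilobase, and SEMA6C the lowest with 0.307 CPM per kilobase, near SYBU with 0.313. The gene models are diverse at their 5′ ends as well, and the 250 bases before the RefSeq start of 4 genes are shown because they span that range, from CpG-rich (TIMP3) to CpG-poor (PIP, RANBP3L). The sequences come from RefSeq on GRCh38.p14 and run 5′ to 3′ along the gene. Capitals mark matches to the motifs searched, and TIMP3 has none.
TIMP3 (chr22:32801455-32801704, plus strand): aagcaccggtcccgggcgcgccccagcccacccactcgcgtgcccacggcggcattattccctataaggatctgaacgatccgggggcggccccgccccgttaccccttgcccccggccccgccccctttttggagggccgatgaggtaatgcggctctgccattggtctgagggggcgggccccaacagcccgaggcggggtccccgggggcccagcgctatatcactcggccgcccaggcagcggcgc
PIP (chr7:143131827-143132076, plus strand): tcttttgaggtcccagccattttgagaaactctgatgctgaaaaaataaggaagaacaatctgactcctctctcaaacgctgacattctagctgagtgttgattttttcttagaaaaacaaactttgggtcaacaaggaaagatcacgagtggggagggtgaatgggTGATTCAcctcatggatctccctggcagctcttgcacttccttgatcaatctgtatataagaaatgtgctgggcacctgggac
CYBRD1 (chr2:171521983-171522232, plus strand): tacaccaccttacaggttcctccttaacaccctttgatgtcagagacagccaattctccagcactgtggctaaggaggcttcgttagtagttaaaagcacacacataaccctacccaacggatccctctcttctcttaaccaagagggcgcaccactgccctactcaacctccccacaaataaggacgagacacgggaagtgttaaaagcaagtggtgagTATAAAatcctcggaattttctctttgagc
RANBP3L (chr5:36301903-36302152, minus strand): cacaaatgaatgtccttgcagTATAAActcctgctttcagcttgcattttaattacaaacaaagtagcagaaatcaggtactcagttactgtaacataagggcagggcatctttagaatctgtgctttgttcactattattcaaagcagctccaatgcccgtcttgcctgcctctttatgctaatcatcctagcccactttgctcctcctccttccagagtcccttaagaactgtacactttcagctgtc

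Windows of 250 bases before to 50 after a start were used for 7 of the 9 genes, leaving out OLR1 and SYBU. CYBRD1 and KLK10 have 2 starts each, which makes 9 windows. Both strands were searched for the forkhead core GTAAACA, its variant with the letters ATAAACA, the further variant GCAAACA, for TGANTCA (AP-1), for the palindromic estrogen response element and TATAAA. None of the 9 windows held a forkhead core, which 3.42%, 4.26% and 3.88% of all 34796 promoters hold, or an estrogen response element, which 0.0575% hold. That says only that these letters are not in these windows. The AP-1 letters begin at position -83 from the start of PIP, as TGATTCA, and 7.73% of promoters hold them. TATAAA begins at -30 from the upstream start of CYBRD1 and at -229 from the start of RANBP3L, and 11.6% of promoters hold it. The observed over expected CpG ratio was 0.788 for TIMP3, 0.772 for NPNT and 0.729 for SEMA6C, against 0.198 for PIP and 0.0785 for RANBP3L. The last value lies above only 7.0% of all promoters.

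Before drug, most of the 9 genes stood lower in the knockout line. Of the 9, 6 were lower in NF1KO than in CTRL in DMSO (OLR1, SYBU, KLK10, NPNT, RANBP3L, CYBRD1), 2 were higher (TIMP3, PIP) and SEMA6C was not called, where a call is an adjusted p under 0.05 over all tested genes. Over all genes 20.3% were called in this comparison, 9.99% higher and 10.3% lower. The median log2 difference was -0.85 over the 9 genes and -0.01 over all tested genes. Under BYL719, 7 were lower, TIMP3 was higher and PIP was not called, against 39.8% of all genes called (20.8% higher, 19% lower), with a median of -1.36 over the 9 and -0.00249 over all. These 2 comparisons are not the ones the genes were picked on, but they share libraries with them. A pick for large rises favours high BYL719 and low DMSO values, so neither direction is independent of it. The plot of the difference between the lines shows both.

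**Figure D2:**
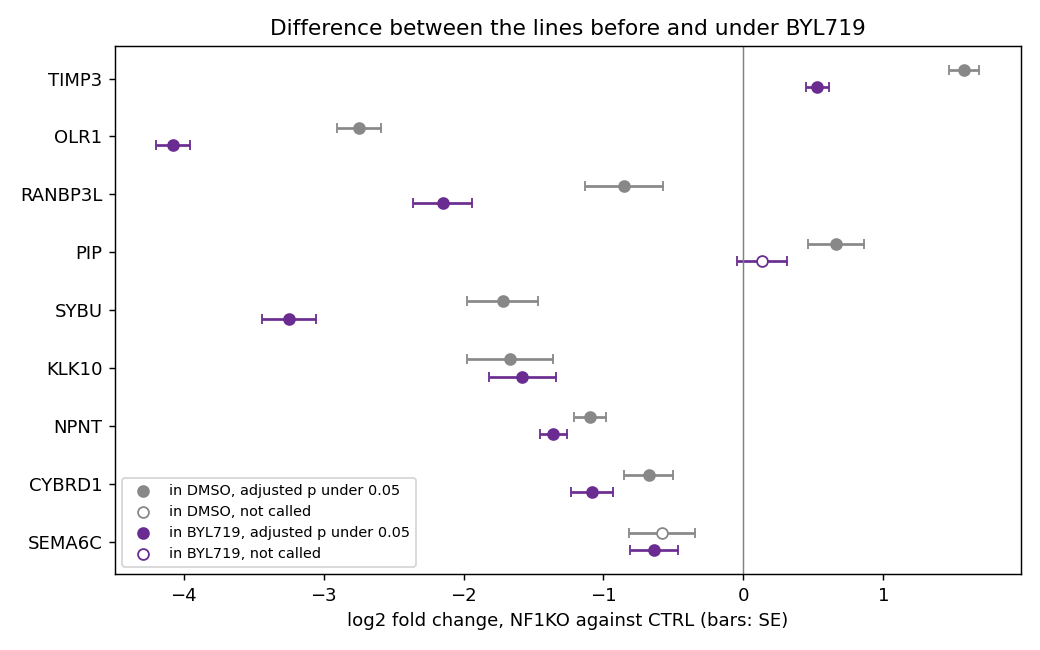
Log2 fold change of NF1KO against CTRL (x axis, bars are the SE) for each gene, in DMSO (grey) and in BYL719 (purple), filled where the adjusted p is under 0.05. Only TIMP3 and PIP lie above 0, and OLR1 lies farthest below it, at -2.75 in DMSO and -4.07 in BYL719.

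The size of the rise under BYL719 is what the genes were chosen on, and is given as a description. In CTRL the log2 change lay between 2.12 (CYBRD1) and 3.51 (TIMP3), and in NF1KO between 1.03 (SYBU) and 2.46 (TIMP3), with medians of 2.56 and 1.87. A log2 change above 1 was reached by 5.63% of all genes in CTRL and 3.55% in NF1KO. Set against the 11536 tested genes whose mean log2 CPM reached 2, the rise of TIMP3 took place 1 in CTRL, OLR1 4, RANBP3L 5, PIP 6 and SYBU 8, and KLK10, NPNT, SEMA6C and CYBRD1 took places between 15 and 20. In NF1KO, TIMP3 took place 3, KLK10 4, PIP 5, NPNT and SEMA6C 7, CYBRD1 8, OLR1 14, RANBP3L 16 and SYBU 65. A gene under that level shares the place of the gene it would displace. Among all 16081 tested genes the places ran from 25 (TIMP3) to 172 (CYBRD1) in CTRL and from 51 (TIMP3) to 541 (SYBU) in NF1KO. The rule names no threshold, so it does not say which gene would come next. Genes outside the set rose as much, and they held the places between those of the members. KLK5 and KLK11, described below, rose by 3.03 and 2.83 in CTRL, from 0.448 and 0.249 CPM in CTRL DMSO. In NF1KO, KLK11 rose by 3.13, more than TIMP3, from 6 counts in all in NF1KO DMSO. KLK5 changed by -0.73 there. The members are therefore not set apart from all other genes by the size of their rise.

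**Figure D3:**
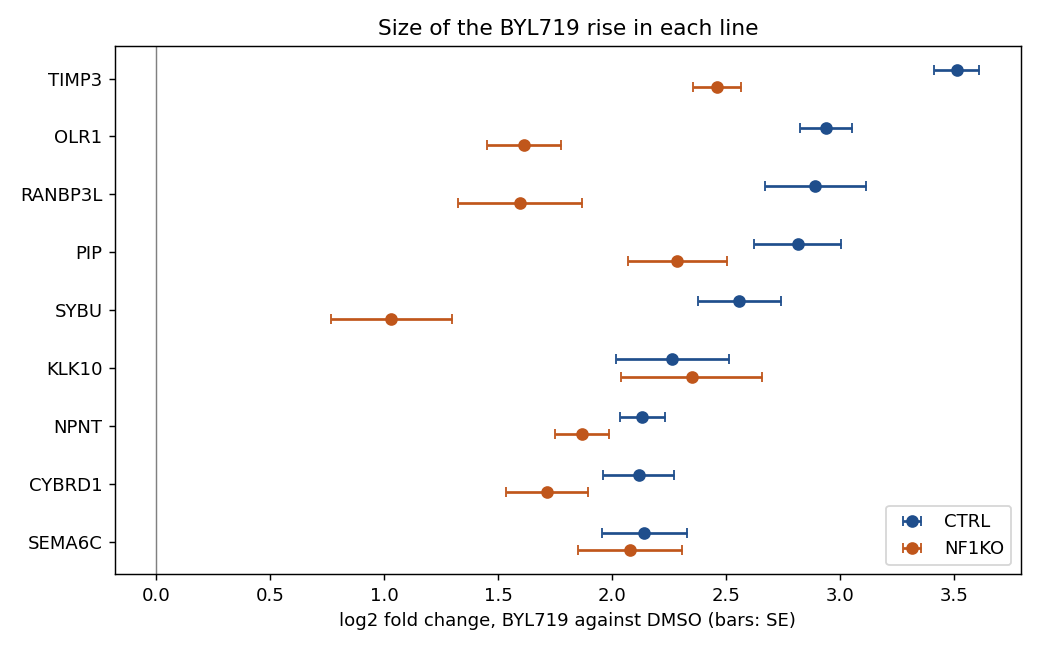
Log2 fold change of BYL719 against DMSO (x axis, bars are the SE) for each gene in CTRL (blue) and NF1KO (orange). The NF1KO point lies far left of the CTRL point for TIMP3, OLR1, RANBP3L and SYBU, and the points of KLK10 and SEMA6C lie within an SE of each other.

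The difference of these log2 changes, NF1KO less CTRL, was below 0 for 8 of the 9 genes and called for 4, all of them smaller rises in NF1KO, where 9.39% of all genes were called in either direction, 5.68% towards a higher value and 3.71% towards a lower one. It is built from the changes the genes were picked on, so its direction is not independent of the pick. Without NF1KO DMSO replicate 3 the count was 2, not 4. CTRL libraries of the same number deviated together, while NF1KO has only 2 such pairs. When replicate numbers were blocked inside each line, 7 of the 9 were called, all lower, against 27% of all genes, 14.9% higher and 12.1% lower. The added calls were PIP, NPNT and CYBRD1. KLK10 and SEMA6C were called in neither fit. The blocked fit has fewer residual degrees of freedom than the 7 of the main fit. NF1KO BYL719 replicate 1 has no DMSO partner and adds nothing to its NF1KO change.

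TIMP3, on chromosome 22 (32801705 to 32863041, Entrez 7078), was called higher in NF1KO in both treatments, the only one of the 9 that was. Its CTRL DMSO libraries held 2.28, 2.68 and 2.62 CPM and its NF1KO DMSO libraries 7.25 and 7.83 CPM. Under BYL719 the CTRL libraries held 25.8, 29.8 and 30.9 CPM and the NF1KO libraries 39.6, 43.3 and 41.8 CPM. The groups did not overlap, and their order ran from CTRL DMSO through NF1KO DMSO and CTRL BYL719 to NF1KO BYL719. NF1KO was 2.99-fold higher in DMSO (log2 1.58 ± 0.11 SE, adjusted p = 8.07e-07) and 1.44-fold higher in BYL719 (0.53 ± 0.08, adjusted p = 0.000295). The rise was 11.4-fold in CTRL and 5.51-fold in NF1KO, a log2 difference of -1.05 ± 0.14 (adjusted p = 0.000467). On the linear scale the order was the other way round, with a gain of 26.3 CPM in CTRL and 34.0 CPM in NF1KO, since NF1KO started higher. TIMP3 lies within the span of SYN3, whose counts were 0.168% of those of TIMP3.

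PIP (chromosome 7, 143132077 to 143139739, Entrez 5304) was also higher in NF1KO in DMSO, and TIMP3 and PIP had a Pearson r of 0.978 over the 11 libraries, which share the treatment contrast. In CTRL DMSO its libraries held 82.8, 111 and 139.6 CPM, and in NF1KO DMSO 189.5 and 162.5 CPM. Under BYL719 they held 597, 814 and 938 CPM in CTRL and 850.5, 833 and 893 CPM in NF1KO. The lines were apart in DMSO and overlapped in BYL719. NF1KO was 1.58-fold higher in DMSO (log2 0.66 ± 0.20, adjusted p = 0.0349), and the difference in BYL719 was 0.13 ± 0.18 (adjusted p = 0.589). In DMSO the call depended on single libraries, and the adjusted p was 0.0777 without CTRL DMSO replicate 1, and over the threshold too without replicate 2 (0.0734), NF1KO DMSO replicate 2 (0.216) or 3 (0.0873), or NF1KO BYL719 replicate 1 (0.0515) or 2 (0.0524). PIP stood 7.04-fold higher under BYL719 in CTRL and 4.88-fold higher in NF1KO, or by 672 and 683 CPM. The log2 difference of these rises was -0.53 ± 0.27 (adjusted p = 0.295), and -0.53 ± 0.09 (adjusted p = 0.000125) with the block within each genotype. Over its alternatives that adjusted p ranged from 0.000125 to 0.620.

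OLR1 (chromosome 12, 10158301 to 10176266, Entrez 4973) had the largest gap between the lines of the 9 genes. Its CTRL DMSO libraries held 8.81, 9.62 and 8.89 CPM, against 1.16 and 1.54 CPM in NF1KO DMSO. With BYL719 the CTRL libraries held 70.5, 78.1 and 61.0 CPM and the NF1KO libraries 4.63, 3.87 and 3.93 CPM. Every NF1KO library, treated or not, lay below every untreated CTRL library, and drug-treated NF1KO reached 45.5% of the mean of untreated CTRL. NF1KO stood at 14.8% of CTRL in DMSO (log2 -2.75 ± 0.16, adjusted p = 1.74e-07) and at 5.93% in BYL719 (-4.07 ± 0.12, adjusted p = 3.20e-10). The rise was 7.67-fold in CTRL and 3.06-fold in NF1KO, a log2 difference of -1.32 ± 0.20 (adjusted p = 0.00115). OLR1 overlaps TMEM52B, with 15.5% of its counts, and the treatment of shared reads in counting is not given in the sources used here.

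SYBU (chromosome 8, 109573978 to 109691600, Entrez 55638) had the smallest rise in NF1KO. Its libraries held 2.49, 2.33 and 1.78 CPM in CTRL DMSO and 12.7, 13.0 and 13.3 CPM in CTRL BYL719. In NF1KO they held 0.609 and 0.725 CPM in DMSO and 1.14, 1.08 and 1.89 CPM in BYL719. Treated NF1KO libraries overlapped the untreated CTRL libraries, at 62.1% of their mean. The log2 difference, NF1KO against CTRL, came to -1.72 ± 0.26 without drug (adjusted p = 0.000465) and -3.25 ± 0.19 in BYL719 (adjusted p = 8.26e-08). The rise was 5.89-fold in CTRL and 2.04-fold in NF1KO, and the log2 difference of -1.53 ± 0.33 (adjusted p = 0.0114) was not called without NF1KO DMSO replicate 3 (adjusted p = 0.102). The 2 NF1KO DMSO libraries rest on 33 and 40 counts. The antisense gene SYBU-AS1 held 0.796% of the counts of SYBU, and the strand setting is not given in the sources used here.

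RANBP3L (chromosome 5, 36246913 to 36301902, Entrez 202151) was lower in NF1KO in both treatments. Its CTRL libraries held 2.66, 2.68 and 4.49 CPM in DMSO and 19.2, 22.3 and 31.5 CPM in BYL719, with replicate 3 the highest in both. NF1KO held 1.75 and 1.87 CPM in DMSO and 5.80, 5.84 and 4.80 CPM in BYL719. The groups did not overlap, and NF1KO BYL719 lay just above CTRL DMSO. In BYL719 NF1KO stood at 22.5% of CTRL (log2 -2.15 ± 0.21, adjusted p = 5.97e-06), a call kept under each alternative fit. In DMSO it stood at 55.2% (log2 -0.85 ± 0.28, adjusted p = 0.0484). The DMSO call did not hold without CTRL DMSO replicate 3 (log2 -0.56, adjusted p = 0.136), without CTRL BYL719 replicate 2 (0.0577), and without each of the 5 NF1KO libraries in turn (0.0581 to 0.212). It was also lost with limma-voom (0.141) and in a fit of the compared libraries alone (0.0529). The rise was 7.43-fold in CTRL and 3.03-fold in NF1KO, and the log2 difference was -1.30 ± 0.35 (adjusted p = 0.0352). The difference was not called when CTRL DMSO replicate 1 (adjusted p = 0.0654) or 2 (0.0792) was left out, nor without CTRL BYL719 replicate 3 (0.0569) or any of the 5 NF1KO libraries (0.0627 to 0.149), and with limma-voom (0.0731). With the block within each genotype the difference was -1.34 ± 0.16 (adjusted p = 3.66e-06).

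KLK10 (chromosome 19, 51012739 to 51020097, Entrez 5655) was lower in NF1KO with and without drug. Its CTRL DMSO libraries held 7.32, 11.0 and 14.5 CPM and those in CTRL BYL719 34.8, 57.5 and 65.5 CPM. NF1KO held 3.53 and 3.37 CPM in DMSO and 15.6, 18.4 and 18.8 CPM in BYL719. CTRL replicate 1 was the lowest of its group in both treatments, and the ratio of same-numbered CTRL libraries kept to a log2 of 2.17 to 2.38. NF1KO stood at 31.5% of CTRL in DMSO (log2 -1.67 ± 0.31, adjusted p = 0.00233) and 33.4% in BYL719 (-1.58 ± 0.24, adjusted p = 0.000211). The rise was 4.80-fold in CTRL and 5.10-fold in NF1KO, and the log2 difference of 0.08 ± 0.38 was not called (adjusted p = 0.933), which does not show that the rises are alike.

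NPNT (chromosome 4, 105895471 to 105971671, Entrez 255743) ranged from 13.2 to 16.6 CPM in CTRL DMSO, 58.0 to 70.8 in CTRL BYL719, 6.70 to 6.89 in NF1KO DMSO and 24.0 to 26.1 in NF1KO BYL719. Its log2 difference, NF1KO against CTRL, came to -1.10 ± 0.12 without drug (adjusted p = 3.43e-05). With BYL719 it came to -1.36 ± 0.10 (adjusted p = 3.78e-07). Its rises of 4.39-fold and 3.65-fold differed by -0.26 ± 0.15 (adjusted p = 0.354), and by -0.25 ± 0.09 (adjusted p = 0.0362) with the block within each genotype. Over its alternatives that adjusted p ranged from 0.0362 to 0.619.

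CYBRD1 (chromosome 2, 171522233 to 171558129, Entrez 79901) ranged from 30.0 to 45.2 CPM in CTRL DMSO and from 22.8 to 26.4 in NF1KO DMSO. In BYL719 it ranged from 136.7 to 187.9 CPM in CTRL and from 77.2 to 83.8 in NF1KO, with no overlap between groups. NF1KO stood at 62.5% of CTRL in DMSO (log2 -0.68 ± 0.17, adjusted p = 0.0164) and at 47.2% in BYL719 (-1.08 ± 0.15, adjusted p = 0.000108). In DMSO it was not called on leaving out CTRL DMSO replicate 3 (adjusted p = 0.0536), NF1KO DMSO replicate 2 (0.0548) or 3 (0.159). Its rises of 4.34-fold and 3.28-fold differed by -0.40 ± 0.23 (adjusted p = 0.349), and by -0.41 ± 0.07 (adjusted p = 0.000289, range over the alternatives 0.000289 to 0.692) with the block within each genotype.

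SEMA6C (chromosome 1, 151131685 to 151146631, Entrez 10500) showed the smallest gap between the lines among the 7 genes with lower means in NF1KO in both treatments. It ranged from 1.34 to 2.17 CPM in CTRL DMSO, 1.18 to 1.20 in NF1KO DMSO, 6.72 to 9.03 in CTRL BYL719 and 4.07 to 5.71 in NF1KO BYL719. The difference in DMSO was -0.58 ± 0.24 (adjusted p = 0.106), and without CTRL DMSO replicate 1, the lowest of its group, -0.75 ± 0.22 (adjusted p = 0.0384, range over the alternatives 0.00652 to 0.305). In BYL719 the log2 difference was -0.64 ± 0.17 (adjusted p = 0.0104). The rises were 4.41-fold and 4.23-fold, with a log2 difference of -0.06 ± 0.30 (adjusted p = 0.938) whose sign changed under 6 of the 20 alternatives.

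Correlations among the 9 genes are given as a description. Over the 11 libraries, OLR1 correlated at 0.983 with SYBU, TIMP3 correlated at 0.235 with OLR1 and 0.277 with SYBU, and PIP at 0.367 with OLR1. NPNT correlated at 0.977 with KLK10 and with CYBRD1, and at 0.976 with RANBP3L. The genes most like each member over these libraries, out of 10940 protein-coding genes, were CRBN (r 0.989), the cereblon ubiquitin ligase receptor, and UBE2H (0.984) for TIMP3, and YPEL2 (0.995) and the keratin KRT23 (0.991) for PIP. For OLR1 they were CRIM1 (0.994) and the immune checkpoint ligand VTCN1 (0.993), which stood at 40.0, 187 and 6.18 CPM in CTRL DMSO, CTRL BYL719 and NF1KO DMSO and 16.2 CPM in NF1KO BYL719. For SYBU they were the Wnt pathway repressor TCF7L1 (0.991) and the AP-1 subunit FOSL2 (0.986), and for RANBP3L OBSL1 (0.989) and LDLRAD3 (0.988). For KLK10 they were BAIAP3 (0.996) and DMTN (0.991), for NPNT ADHFE1 (0.993) and ZBED1 (0.990), for CYBRD1 C11orf54 (0.993) and C6orf89 (0.992), and for SEMA6C GGT7 (0.988) and the MYC antagonist MXI1 (0.985). All points share the same libraries and the same treatment, and with Spearman's rho in place of Pearson's r only BAIAP3 of these 18 genes stayed as high as place 2, which it shared with other genes (rho 0.991).

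The wider families of the 9 genes were counted in lists that leave the members out. Of 269 relatives, 213 were tested. In CTRL 64 rose and 42 fell under BYL719, so that 49.8% were called, against 44.4% of all genes (22.6% higher, 21.8% lower), and the median change was 0.04 against 0.00491 over all genes. In NF1KO 32 rose and 17 fell, 23% against 18.7% (10.3% higher, 8.47% lower), with a median of 0.04 against 0.01. Without NF1KO DMSO replicate 2 these became 13 and 9, without replicate 3 they became 10 and 7, and without NF1KO BYL719 replicate 2 there were 20 rises. With the block within each genotype 57 rose and 45 fell in NF1KO, against 41.9% of all genes called (21.8% higher, 20.1% lower). In CTRL 83 relatives rose and 63 fell with that block, which called 63.4% of all genes, 31.8% higher and 31.6% lower. The plot of the relatives gives each gene.

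**Figure D4:**
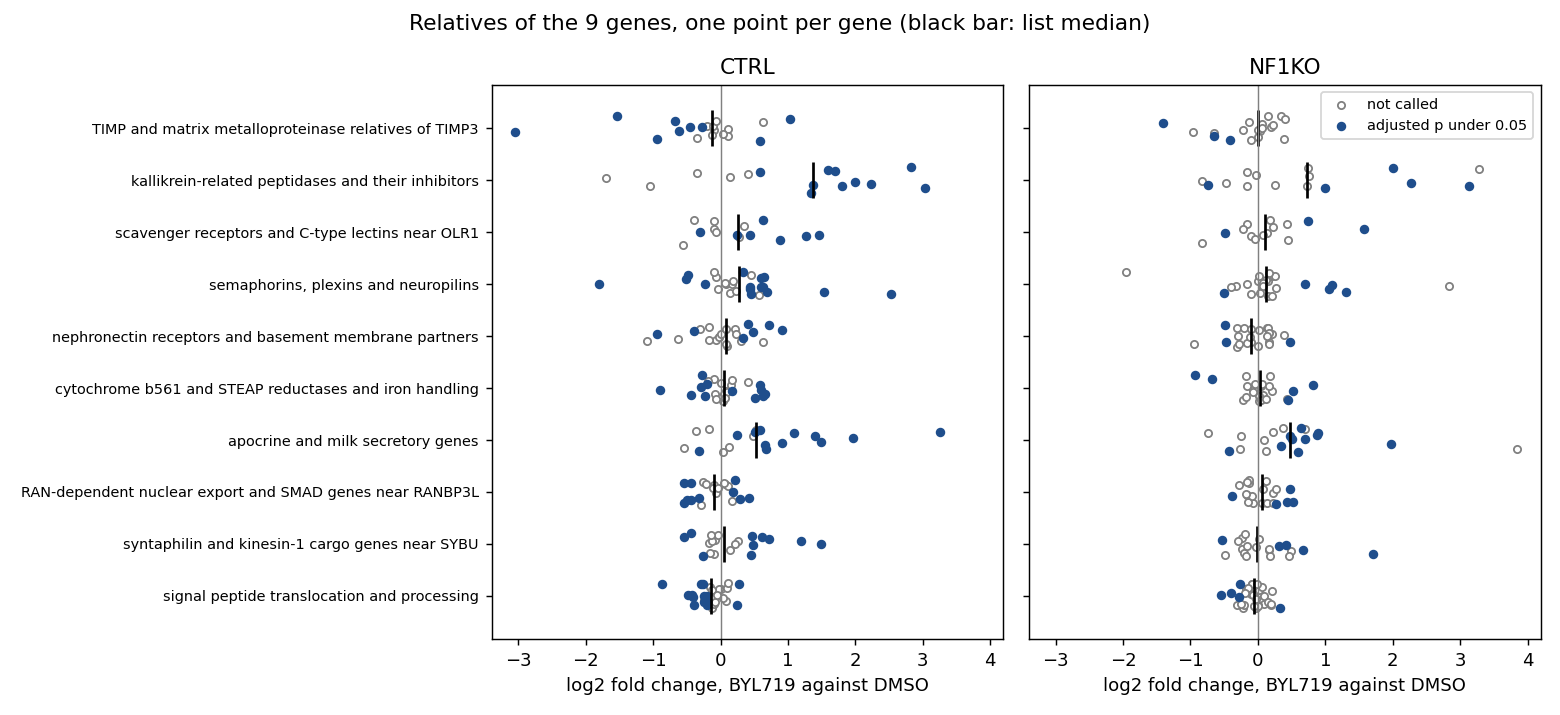
Log2 fold change of BYL719 against DMSO (x axis) for each tested relative of the 9 genes, by list, in CTRL (left) and NF1KO (right), with filled points where the adjusted p is under 0.05 and a black bar at the list median. The kallikrein list has the highest median in both lines, 1.37 in CTRL and 0.73 in NF1KO, followed by the apocrine list at 0.52 and 0.47. The other lists have medians between -0.14 and 0.28.

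The kallikrein-related peptidases and their inhibitors had the highest list median in both lines, while the share called in NF1KO was 33.3%, below the 52.6% of the apocrine list. Of 15 tested, 10 rose and 0 fell in CTRL, and 4 rose and 1 fell in NF1KO, with medians of 1.37 and 0.73. That is 66.7% and 33.3% called, against 44.4% and 18.7% of all genes. For the count of 0 by edgeR, 1 gene was lower at an unadjusted p under 0.05, and DESeq2 and limma-voom called 0. In CTRL DMSO, KLK8, SPINT1 and SPINT2 stood at 6.81, 212 and 335 CPM. The other tested genes of the list stood at 0.999 CPM or less there. KLK13, which rose in CTRL, held 9 counts in all in CTRL DMSO. Its mean was 0.0537 CPM there and 0.196 CPM in CTRL BYL719, its highest group. A gene this low can pass the filter through the group where it is high, so its rise is not independent of the filter. KLK11, which lies 2139 bases from KLK10, rose by 2.83 ± 0.28 in CTRL (adjusted p = 8.04e-06) and by 3.13 ± 0.49 in NF1KO (adjusted p = 0.00139), from 6 counts in all in NF1KO DMSO. KLK5, a skin protease that activates other kallikreins, rose by 3.03 ± 0.25 in CTRL (adjusted p = 1.77e-06), from 0.448 ± 0.189 to 3.66 ± 0.646 CPM (SD, n = 3). In NF1KO it stood at 5.39 ± 0.0329 CPM (SD, n = 2) in DMSO and 3.24 ± 0.532 CPM (SD, n = 3) in BYL719, a change of -0.73 ± 0.22 (adjusted p = 0.0352). The fall was not called without NF1KO DMSO replicate 2 (adjusted p = 0.155) or 3 (0.170) or NF1KO BYL719 replicate 1 (0.114) or 2 (0.0884). The KLK5 difference of effects was -3.77 ± 0.33 (adjusted p = 3.61e-05). The inhibitors SPINT1 and SERPINA3 rose in CTRL by 0.58 ± 0.08 (adjusted p = 9.11e-05) and 2.23 ± 0.17 (adjusted p = 1.18e-06).

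The start levels of other kallikreins split in 2 ways between the lines, described here for genes picked after their values were seen. In DMSO, KLK5 was higher in NF1KO by 3.59 ± 0.26 (adjusted p = 1.21e-06), KLK6 by 4.05 ± 0.28 (adjusted p = 8.29e-07) and KLK7 by 1.83 ± 0.36 (adjusted p = 0.00348). These folds rest on few counts in CTRL DMSO. Per library they were 16, 23 and 35 for KLK5, 8, 10 and 8 for KLK6, and 21, 19 and 13 for KLK7. KLK4, KLK8 and KLK11 were lower, as KLK10 was, with log2 differences of -1.90 ± 0.45 (adjusted p = 0.0110), -0.86 ± 0.25 (adjusted p = 0.0320) and -2.12 ± 0.55 (adjusted p = 0.0165). The NF1KO DMSO libraries held 15 and 7 counts of KLK4 and 3 and 3 of KLK11. The call of KLK4 was lost without NF1KO DMSO replicate 3 (0.132), that of KLK11 without NF1KO DMSO replicate 2 (0.103) or 3 (0.114), and in a fit of the compared libraries alone (0.0564). That of KLK8 was lost without CTRL DMSO replicate 2 (0.0606) or 3 (0.0942) or NF1KO DMSO replicate 2 (0.105) or 3 (0.208), and with limma-voom (0.0762). Each of these genes rose in CTRL under BYL719, KLK6 by 1.60 ± 0.32 (adjusted p = 0.00147), KLK7 by 1.34 ± 0.34 (adjusted p = 0.00733), KLK8 by 1.37 ± 0.21 (adjusted p = 0.000230) and KLK4 by 1.99 ± 0.29 (adjusted p = 0.000151).

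**Figure D5:**
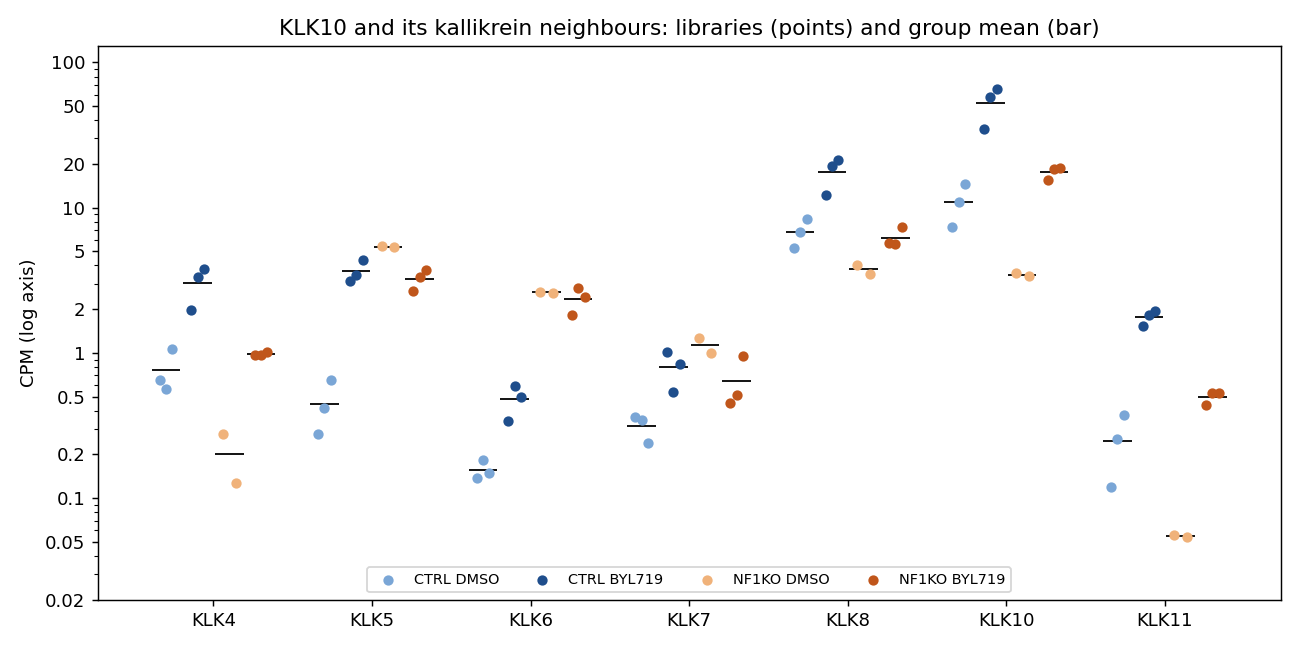
CPM (log axis) of KLK10 and 6 other kallikreins in each library, by group, with a black bar at the group mean. KLK5, KLK6 and KLK7 stand higher in NF1KO DMSO than in CTRL DMSO, and KLK4, KLK8, KLK10 and KLK11 stand lower.

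Of the apocrine and milk secretory genes, to which PIP belongs, 11 of 19 rose and 1 fell in CTRL and 9 rose and 1 fell in NF1KO. The medians were 0.52 and 0.47, and 63.2% and 52.6% were called, against 44.4% and 18.7% of all genes. Some of these calls rest on few counts. XDH and SCGB1D2 rose in CTRL from 4 and 5 counts in all in CTRL DMSO. WFDC2 rose in NF1KO from 4 counts in all in NF1KO DMSO. XDH stood at 0.248 CPM in CTRL BYL719 and at 0.0304 CPM or less in the other groups. It passed the low-count filter through the group where it was high, so its rise is not independent of the filter. ZG16B, a secreted lectin-like protein, rose in CTRL by 1.41 ± 0.13 (adjusted p = 5.67e-06) and the apolipoprotein APOD by 1.10 ± 0.10 (adjusted p = 3.71e-06). STAT5A, which carries prolactin signals, rose by 0.91 ± 0.10 (adjusted p = 2.51e-05), and the alveolar transcription factor ELF5 by 0.68 ± 0.08 (adjusted p = 4.68e-05). In NF1KO these 4 genes rose by 0.87 ± 0.15, 0.64 ± 0.11, 0.51 ± 0.12 and 0.34 ± 0.09 (adjusted p between 0.00256 and 0.0265). Leaving out 1 library, the NF1KO change of ZG16B ranged from 0.78 to 0.96 and that of ELF5 from 0.27 to 0.41. The NF1KO calls of this list depend on only 2 NF1KO DMSO libraries. Of 31 genes that bring secreted proteins into the endoplasmic reticulum, 2 rose and 12 fell in CTRL (median -0.14), so that 45.2% were called against 44.4% of all genes. In NF1KO 1 rose and 4 fell (median -0.06), 16.1% against 18.7% of all genes. SEC61A2, a translocon subunit, changed by -0.87 ± 0.08 in CTRL (adjusted p = 3.45e-06) and -0.55 ± 0.08 in NF1KO (adjusted p = 0.00124). SSR3, PDIA4 and TRAM2 changed in CTRL by -0.42 ± 0.06, -0.48 ± 0.06 and 0.28 ± 0.06 (adjusted p between 5.55e-05 and 0.00246).

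Around TIMP3, 2 of 19 other TIMP, metalloproteinase and related genes rose and 7 fell in CTRL, and 0 rose and 3 fell in NF1KO. The medians were -0.12 and 0.01, and 47.4% and 15.8% were called, against 44.4% and 18.7% of all genes. The count of 0 is by edgeR; 1 gene was higher at an unadjusted p under 0.05, and DESeq2 and limma-voom called 1 each. ADAMTS4, an aggrecan-cleaving protease, changed in CTRL by -1.53 ± 0.28 (adjusted p = 0.000854), the membrane protease MMP15 by -0.45 ± 0.10 (adjusted p = 0.00312) and MMP16 by -0.62 ± 0.13 (adjusted p = 0.00228). TIMP4 was called lower in CTRL (adjusted p = 0.00266) with 3 counts in all in CTRL BYL719, too few for a fold. Before drug MMP16 stood at 10.0 ± 1.19 CPM (SD, n = 3) in CTRL DMSO and 119 ± 2.84 CPM (SD, n = 2) in NF1KO DMSO.

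Of 26 semaphorins, plexins and neuropilins, 11 rose and 4 fell in CTRL and 4 rose and 1 fell in NF1KO (medians 0.28 and 0.13). That is 57.7% and 19.2% called, against 44.4% and 18.7% of all genes. The secreted semaphorins SEMA3D and SEMA3G rose in CTRL by 1.54 ± 0.21 (adjusted p = 8.20e-05) and 0.65 ± 0.11 (adjusted p = 0.000368), and SEMA3G rose by 0.70 ± 0.12 in NF1KO (adjusted p = 0.00237). PLXNA1, of the plexin class that binds class 6 semaphorins, rose in CTRL by 0.70 ± 0.10 (adjusted p = 0.000140), and SEMA4A by 0.43 ± 0.07 (adjusted p = 0.000396). Of 14 scavenger receptors and C-type lectins, 6 rose and 1 fell in CTRL and 2 rose and 1 fell in NF1KO (medians 0.26 and 0.10). Here 50% and 21.4% were called, against the same shares of all genes. The fatty acid and lipoprotein receptor CD36 rose in CTRL by 0.88 ± 0.15 (adjusted p = 0.000489), CXCL16 by 0.44 ± 0.06 (adjusted p = 9.25e-05) and CD68 by 0.63 ± 0.17 (adjusted p = 0.0102).

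Of 23 integrins and basement membrane genes, 5 rose and 2 fell in CTRL and 1 rose and 2 fell in NF1KO (medians 0.08 and -0.10). The shares called, 30.4% and 13%, lay below the 44.4% and 18.7% of all genes. The laminin chain LAMB2 rose in CTRL by 0.73 ± 0.07 (adjusted p = 1.09e-05) and in NF1KO by 0.48 ± 0.08 (adjusted p = 0.00263), while LAMC1 changed by -0.39 ± 0.07 (adjusted p = 0.000611) and -0.49 ± 0.08 (adjusted p = 0.00121). The laminin-binding integrin chain ITGA6 changed by -0.94 ± 0.07 in CTRL (adjusted p = 1.39e-06) and -0.47 ± 0.08 in NF1KO (adjusted p = 0.00249), and ITGA3 rose by 0.48 ± 0.08 in CTRL (adjusted p = 0.000354). Of 25 reductases and iron genes near CYBRD1, 6 rose and 6 fell in CTRL and 3 rose and 2 fell in NF1KO (medians 0.06 and 0.03). Here 48% and 20% were called, near the shares of all genes. The ferritin-degradation receptor NCOA4 rose in CTRL by 0.66 ± 0.08 (adjusted p = 2.69e-05) and the metalloreductase STEAP2 by 0.59 ± 0.10 (adjusted p = 0.000411), and the CYBRD1 relative FRRS1 changed by -0.90 ± 0.12 (adjusted p = 9.85e-05). Heme oxygenase HMOX1 changed by -0.44 ± 0.08 in CTRL (adjusted p = 0.00117) and -0.93 ± 0.09 in NF1KO (adjusted p = 0.000108).

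Near RANBP3L, 4 of 21 nuclear export and SMAD genes rose and 6 fell in CTRL, and 4 rose and 1 fell in NF1KO. The medians were -0.10 and 0.07, and 47.6% and 23.8% were called, against 44.4% and 18.7% of all genes. The RAN regulators RANBP1, RCC1 and RANGAP1 and the exportin XPO7 changed in CTRL by -0.50 ± 0.06, -0.55 ± 0.09, -0.43 ± 0.06 and -0.32 ± 0.05 (adjusted p between 3.83e-05 and 0.000416), and RANGAP1 changed by -0.38 ± 0.07 in NF1KO (adjusted p = 0.00251). Near SYBU, 7 of 20 kinesin-1 cargo genes rose and 3 fell in CTRL, and 4 rose and 1 fell in NF1KO. The medians were 0.05 and -0.01, and 50% and 25% were called, against the same shares of all genes. The adaptors FEZ1, KLC4, MAPK8IP1 and TRAK1 rose in CTRL by 0.62 ± 0.12, 0.48 ± 0.10, 0.46 ± 0.07 and 0.45 ± 0.07 (adjusted p between 0.000223 and 0.00157).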

How the data were processed

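Messenger RNA of 11 libraries was analysed. The authors deposited raw counts per gene in 1 table, and per the submitters' processing notes STAR 2.5.2a, SAMtools 1.7, Picard 2.9.2 and edgeR were used with the build hg38. The counting tool, its strand setting and the annotation are not given in the sources used here, so overlapping genes may share reads. From the counts, genes were filtered with filterByExpr, scaled by TMM and fitted over the 4 groups with edgeR 4.0.16 (R 4.3.3, quasi-likelihood F test, 7 residual degrees of freedom), with Benjamini-Hochberg adjustment over all 16081 tested genes. A call is an adjusted p under 0.05, errors of log2 changes are SE, and NF1KO DMSO replicate 1 is in no fit. Nothing in the labels says that libraries came from separate cultures, so p-values measure the spread between these libraries only.

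The 9 genes, the lists of relatives and the tests were chosen with earlier results of these data known. Per list of relatives, up to 4 genes with the smallest adjusted p among those called in either BYL719 comparison were named, and NF1 as the check of the label. Genes outside this rule are said to be. One gene that the rule names is not reported here. Similar genes were the 2 with the highest Pearson r to a member. Within CTRL, libraries of the same replicate number deviated together (correlations of deviations over 11536 genes 0.875, 0.796 and 0.719). Replicates 2 and 3 also correlated across numbers (0.581 and 0.412), and replicate 1 with either of them lay between -0.795 and -0.650. NF1KO has 2 pairs of the same number (0.25 and 0.38), too few to show pairing. Its DMSO replicate 2 correlated at 0.254 with BYL719 replicate 1. Between the lines same-numbered libraries correlated from -0.37 to 0.45, so the numbers do not pair across the lines. Alternatives were DESeq2 1.42.0, limma-voom (limma 3.58.1), other scalings (RLE, upper quartile), no filter or 1 CPM in 3 libraries, the compared libraries alone, replicate blocks and leaving out each library. The main edgeR fit was run on simulated counts without the shared deviations of same-numbered CTRL libraries. Its outcome is not given here, and the blocked fits were not simulated. CPM values rest on 53283945 to 60148876 counts per library. Exon lengths came from GENCODE and promoters from RefSeq. Protein sequence features were not analysed here.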

Additional observations from a re-analysis of the deposited data

Results flagged for a closer look

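The BYL719 effect differed between the lines, by the test of the difference itself (edgeR, NF1KO less CTRL, log2), for 4 of the 9 genes: TIMP3 (-1.05), OLR1 (-1.32), RANBP3L (-1.30) and SYBU (-1.53). The genes were picked on the changes this difference is built from, so the values are a description and no independent evidence of its direction. In each of them every library was higher with drug in both lines, and the rise was smaller in NF1KO. For SYBU the call was lost without NF1KO DMSO replicate 3 (adjusted p = 0.102), and for RANBP3L without any of 8 single libraries (largest adjusted p 0.149), as given above for each.

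Among the relatives named by the rule the difference was negative for KLK5 (-3.77 ± 0.33, adjusted p = 3.61e-05), SERPINA3 (-1.23 ± 0.27, adjusted p = 0.0121), SPINT1 (-0.75 ± 0.12, adjusted p = 0.00161), PLXNA1 (-0.55 ± 0.15, adjusted p = 0.0368), HMOX1 (-0.49 ± 0.13, adjusted p = 0.0334) and CXCL16 (-0.37 ± 0.09, adjusted p = 0.0224). It was positive for MMP16 (1.01 ± 0.19, adjusted p = 0.00454), ITGA6 (0.46 ± 0.11, adjusted p = 0.0214), RANBP1 (0.43 ± 0.09, adjusted p = 0.0101) and SSR3 (0.34 ± 0.09, adjusted p = 0.0284). KLK6 (-1.76 ± 0.38, adjusted p = 0.0121) and KLK7 (-2.17 ± 0.48, adjusted p = 0.0133) lie outside the rule and were chosen after their values were seen, and other relatives outside it with a called difference are not listed. The call was lost without NF1KO DMSO replicate 2 for RANBP1 (0.0752) and KLK7 (0.0782), and without NF1KO DMSO replicate 3 for SERPINA3 (0.0959). Several single libraries ended it for CXCL16 (largest adjusted p 0.121), PLXNA1 (0.199), ITGA6 (0.116), HMOX1 (0.132) and SSR3 (0.135), the NF1KO DMSO libraries among them in each case. For GABARAPL1, a neighbour of OLR1 also chosen after its values were seen, the difference was -0.77 ± 0.12 (adjusted p = 0.00115). Groups of at most 3 libraries were too small to look for single outlying libraries.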

How the results depend on the processing

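NF1KO DMSO rests on 2 libraries, and 44 of the 91 changed calls of named or described relatives and neighbours followed from leaving out 1 of them. Under BYL719 the counts between the lines (1 higher, 7 lower) stayed the same in every fit run. Leaving out 1 library at a time gave 1 to 2 members higher and 4 to 7 lower in NF1KO in DMSO, and 2 to 4 with a smaller rise in NF1KO. For the relatives in NF1KO it gave 10 to 37 higher and 7 to 24 lower. With the replicate block within each genotype, 7 members had a smaller rise in NF1KO, and 57 relatives rose and 45 fell in NF1KO. In NF1KO 26 relatives fell with DESeq2, 30 with the replicate block over both lines, 27 with the compared libraries alone and 40 without both CTRL libraries numbered 1, a setting chosen after seeing the data. That setting also brought the difference of rises under the threshold for PIP (adjusted p = 0.0281) and CYBRD1 (0.0250), and the SEMA6C difference in DMSO (0.0189), as did the block over both lines for SEMA6C (0.00652). Signs turned for values that were not called. Leaving out 1 library, PIP between the lines in BYL719 ranged from -0.029 to 0.27, and it was -0.022 without both CTRL libraries numbered 1. The difference of rises ranged from -0.17 to 0.31 for KLK10 and from -0.23 to 0.11 for SEMA6C. For SEMA6C it was 0.059 with the replicate block, 0.067 with the block within each genotype and 0.010 without both CTRL libraries numbered 1. The cause was not tested.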

Other observations

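Genes next to the 9 members were looked at after the members' values were seen. Of 30 tested genes within 100 kb of a member, 12 rose and 4 fell under BYL719 in CTRL, where 22.6% of all genes rose and 21.8% fell. Most of these rises lay around KLK10 alone and are already counted in the kallikrein list. They were KLK5, KLK6, KLK7, KLK8, KLK11, KLK14 and KLK13, the last from 9 counts in all in CTRL DMSO. The others were TMEM52B, GABARAPL1, LMBRD2, TBCK and BNIPL, so the count shows no trend shared by the members. In NF1KO 6 rose and 2 fell, where 10.3% of all genes rose and 8.47% fell. Around OLR1, the overlapping gene TMEM52B stood at 3.62 CPM in CTRL DMSO, 8.42 in CTRL BYL719, 0.402 in NF1KO DMSO and 0.729 in NF1KO BYL719. It rose by 1.22 ± 0.13 in CTRL (adjusted p = 1.92e-05) and was lower in NF1KO than in CTRL in both treatments, with log2 differences of -3.17 ± 0.21 (adjusted p = 5.79e-07) and -3.52 ± 0.16 (adjusted p = 8.97e-09). Its span overlaps that of OLR1, and the strand setting of the counts is not given in the sources used here. The pair may therefore share reads, and how many is not known. GABARAPL1, an autophagy gene 36611 bases from OLR1 that does not overlap it, rose by 1.18 ± 0.08 in CTRL (adjusted p = 2.74e-07). In NF1KO it rose by 0.41 ± 0.09 (adjusted p = 0.00783), which was not called without NF1KO DMSO replicate 3 (adjusted p = 0.103). In DMSO its difference between the lines was -0.11 ± 0.09 (adjusted p = 0.421), and in BYL719 it was -0.88 ± 0.08 (adjusted p = 2.16e-06).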
